A study of Drosophila melanogaster with 3 samples.

Results

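The narrow peaks are the 256 of 2397 optimal HLHm7 peaks whose region spans less than 340 bp in the authors' dm6 list, 10.7% of that list. They were chosen by their measured width alone. The other 2141 peaks, of 340 bp or more, are called wide here. HLHm7 was mapped by chromatin immunoprecipitation and sequencing (ChIP-seq) with an antibody against GFP, in whole Drosophila melanogaster embryos collected at 0 to 16 h without separating the sexes. They carried a stably expressed transgene, HLHm7 with GFP at its C-terminus, which the labels describe as an insertion aimed at E(spl)m7-HLH. The 3 libraries are biological replicates of that single group. Chromatin was sonicated, and the labels give a size range of 200 to 800 bp. No promoter or copy number of the transgene is given in the labels, and whole embryos mix all cell types, so a peak cannot be placed in any of them.

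The HLHm7 protein belongs to the basic helix-loop-helix-orange repressors of the Enhancer of split complex, which Notch signalling switches on. Such proteins bind DNA as dimers at E-box-like sites and recruit the corepressor Groucho, and are best known for repressing proneural genes. In a ChIP-seq peak list, a region is the stretch that the caller assigns to a peak, and the summit is the point of strongest enrichment within it. Optimal peaks are those kept by the authors' test of reproducibility between replicates (irreproducible discovery rate, IDR). A region's signal comes from the authors without a scale, and is used here to describe and rank peaks within a list. Read numbers are not part of these lists, so depth is unknown.

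The sequences at the summits show how varied the narrow peaks were. Printed first are the 6 of the 8 narrow peaks with the highest signal, with 100 bp to each side of the summit. They lay at chr2L:14023984-14024184 for lncRNA:CR31840, at chrX:2137247-2137447 for ph-p, at chr3R:16222394-16222594 for lncRNA:CR45643, at chr3L:22878788-22878988 for Chro, at chr3R:31404557-31404757 for PNPase and at chr3R:11760957-11761157 for Lk6. RpL7 (chr2L:10200923-10201123) follows because it was the single narrow peak with a class B E-box, a class C site and an N-box, a choice made after its values were seen. The last are the whole regions of CG7841 (chr3L:15508332-15508427) and RluA-1 (chr2L:10474501-10474596), which share the smallest width, 96 bp. All are the forward strand of dm6, read 5′ to 3′ from the RefSeq genome, with matches to the 12 motifs searched in capitals.
lncRNA:CR31840: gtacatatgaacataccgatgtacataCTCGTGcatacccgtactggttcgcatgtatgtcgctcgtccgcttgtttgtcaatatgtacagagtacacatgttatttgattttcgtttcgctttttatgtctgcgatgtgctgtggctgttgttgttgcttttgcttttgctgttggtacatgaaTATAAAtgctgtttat
ph-p: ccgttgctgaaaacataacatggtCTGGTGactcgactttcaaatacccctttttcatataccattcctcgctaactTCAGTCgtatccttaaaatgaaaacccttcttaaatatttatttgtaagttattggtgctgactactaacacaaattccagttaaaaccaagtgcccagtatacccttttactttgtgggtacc
lncRNA:CR45643: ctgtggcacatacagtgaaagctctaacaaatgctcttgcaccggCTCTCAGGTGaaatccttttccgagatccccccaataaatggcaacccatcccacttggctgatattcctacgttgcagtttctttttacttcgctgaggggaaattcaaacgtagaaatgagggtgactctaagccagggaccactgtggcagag
Chro: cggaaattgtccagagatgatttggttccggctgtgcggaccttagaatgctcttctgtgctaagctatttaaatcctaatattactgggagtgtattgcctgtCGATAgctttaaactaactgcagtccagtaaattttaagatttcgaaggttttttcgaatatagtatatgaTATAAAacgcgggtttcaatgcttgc
PNPase: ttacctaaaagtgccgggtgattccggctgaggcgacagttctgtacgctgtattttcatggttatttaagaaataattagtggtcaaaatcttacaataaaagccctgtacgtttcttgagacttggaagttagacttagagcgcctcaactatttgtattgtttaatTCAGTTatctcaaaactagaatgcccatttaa
Lk6: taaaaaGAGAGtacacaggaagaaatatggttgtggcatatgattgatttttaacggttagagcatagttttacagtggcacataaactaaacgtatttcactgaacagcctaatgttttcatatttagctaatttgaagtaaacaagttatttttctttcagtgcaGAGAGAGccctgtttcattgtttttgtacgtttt
RpL7: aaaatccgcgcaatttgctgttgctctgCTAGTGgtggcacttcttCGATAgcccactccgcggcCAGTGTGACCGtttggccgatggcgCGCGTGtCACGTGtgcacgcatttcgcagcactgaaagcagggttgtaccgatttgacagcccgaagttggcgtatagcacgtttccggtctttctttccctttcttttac
CG7841: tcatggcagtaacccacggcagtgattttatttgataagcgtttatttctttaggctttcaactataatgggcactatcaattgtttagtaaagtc
RluA-1: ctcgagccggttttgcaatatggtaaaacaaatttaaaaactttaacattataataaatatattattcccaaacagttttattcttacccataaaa

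No motif was common to all of these peaks. With positions given as the first base of a match from the summit, lncRNA:CR31840 had an N-box at -73 bp and a TATA box at 85 bp, and ph-p had an N-box at -76 bp and an Initiator at -23 bp. The peak at lncRNA:CR45643 had a GAGA repeat at -55 bp that shares a base with the E-box CACCTG at -51 bp. Chro had a BEAF site at 4 bp and a TATA box at 75 bp, PNPase had an Initiator at 69 bp, and Lk6 had GAGA repeats at -94, 67 and 69 bp. RpL7 had a class C site at -10 bp and a class B E-box at -3 bp, next to the summit, with Motif 1 at -35 bp, a BEAF site at -54 bp and an N-box at -72 bp. The 96 bp regions at CG7841 and RluA-1 held no match.

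Width and signal went together, and the wide peaks had hardly any width of their own. Of the 2141 wide peaks, 2135 had a width of exactly 384 bp, and 2133 of these had the summit at an offset of exactly 192 bp. That value is treated here as the list's default width. The other 6 wide peaks were 342 bp at fray, 343 bp at CG11050, 352 bp at CG14100, 366 bp at cbt, 383 bp at Ugalt and 419 bp at lncRNA:CR44619. Just inside the threshold were px (335 bp, signal 1426), CG31145 (326 bp, 910), Pdrg1 (322 bp, 685), Lk6 (321 bp, 1115) and ph-p (319 bp, 1285). The nearest outside were fray (342 bp, signal 472) and CG11050 (343 bp, 1076). The peaks on both sides of 340 bp were thus among the strongest of the list, and a width other than the default was nearly limited to strong peaks. A comparison of narrow with wide peaks is therefore also a comparison of strong with weaker peaks. The main results below are given again within bands of signal rank, which lessen this difference and do not remove it. Counts of gene lists and most motif shares are given over all optimal peaks only.

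Narrow widths ran from 96 to 335 bp, with a median of 177.5 bp and quartiles of 138.5 and 232 bp. Narrow peaks ranked between 3 and 1680 by signal, with a median rank of 137.5, against 1326 for wide peaks. Median signal was 391 in narrow peaks and 134 in wide peaks. Of the narrow peaks, 255 (99.6%) stood at the highest −log10 q of the list, 3.32, compared with 801 wide peaks (37.4%) and 44.1% of all optimal peaks. Among narrow peaks Spearman's rho between width and signal was 0.839 (256 peaks, a description across peaks of a single list), so that narrower peaks tended to be weaker. The first 50 peaks by signal held 44 narrow peaks with a median width of 286.5 bp, and the next 50 held 49, with a median of 228 bp. The next groups of 100 held 83, 46 and 22 narrow peaks, with medians of 172, 135.5 and 131.5 bp. The next 200 peaks held 9 narrow peaks and the last 1797 held 3. These values describe what the width rule selects and were not tested.

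**Figure D1:**
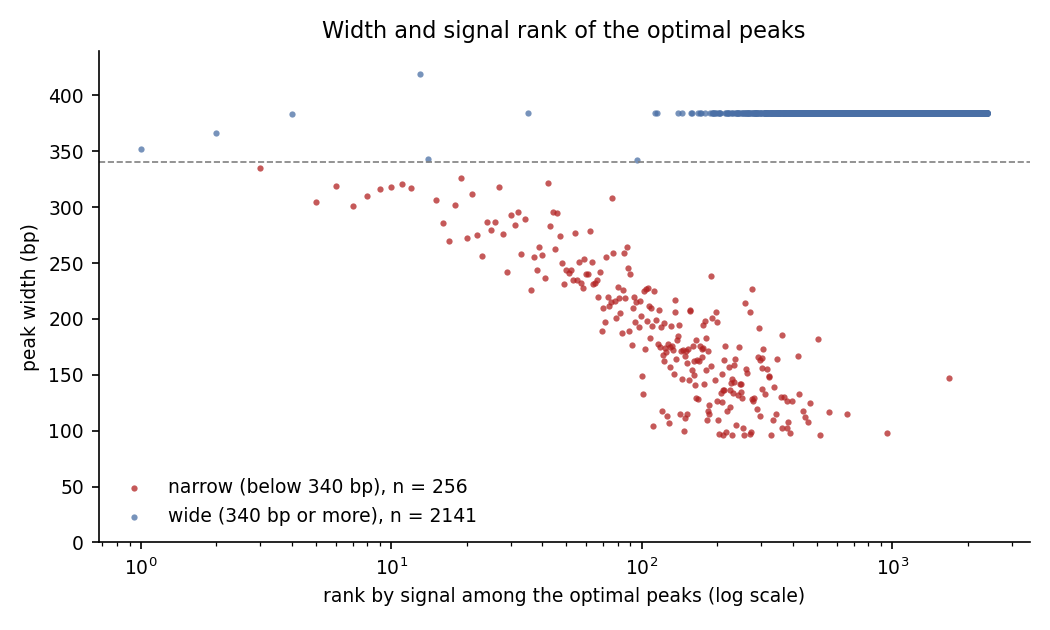
Width (bp) of each optimal peak against its rank by signal (log scale), with the 256 narrow peaks in red, the 2141 wide peaks in blue and 340 bp as a dashed line. Narrow widths fall with rank to 96 bp, and the wide peaks form a line at 384 bp with 6 exceptions.

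The replicates' own lists repeated this pattern. Their default widths were 376, 384 and 376 bp in replicates 1, 2 and 3, and of the 30000 regions in each, 96, 152 and 117 were below 340 bp (0.320%, 0.507% and 0.390%). At the summits of narrow optimal peaks, 90, 147 and 109 of the 256 replicate regions were below 340 bp, or 35.2%, 57.4% and 42.6%. At wide optimal peaks, 6, 5 and 8 of the replicates' narrow regions were found, and 0 lay elsewhere in each list. Of the narrow optimal peaks, 69 had such a region in 3 replicates, 41 in 2, 57 in 1 and 89 in 0. The 89 peaks were thus narrow in the pooled data and had the default width in each replicate. Where both widths were below 340 bp, rho between the pooled and the replicate width was 0.824 (90 peaks), 0.890 (147 peaks) and 0.778 (109 peaks). The pooled list was made from the same reads, so these values are not independent of the choice of peaks. On the older dm3 build, 255 of 2266 optimal peaks were below 340 bp, with a median of 176 bp.

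Of the 20 narrow peaks with the highest signal, 15 lay within 500 bp of a transcription start site (TSS), 2 in introns, 2 in intergenic sequence and 1 in a coding exon. All 20 had a region below 340 bp and a summit within 50 bp in each replicate, at a rank of 48 or better. The first was the promoter peak of px, a gene of wing vein patterning, with a signal of 1426 and a width of 335 bp. Its widths were 286, 310 and 304 bp and its ranks 4, 3 and 4 in replicates 1, 2 and 3. The peak of lncRNA:CR31840 had a signal of 1361 and ranked 3, 5 and 14 in the replicates, with a summit 15 bp downstream of the TSS. The peak of ph-p, which encodes a subunit of Polycomb repressive complex 1, lay at -492 bp (signal 1285) and ranked 7, 8 and 2. An intergenic peak at -901 bp from lncRNA:CR45643 (1255) ranked 8, 6 and 8. The 3 lists held each of these peaks near their top. The peaks were chosen by signal in the pooled list, made from the same reads, so these ranks are not independent of the choice.

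The next narrow peaks by signal were at genes of unlike function. The mitochondrial ribosomal protein gene mRpL41 had a peak of 310 bp (signal 1216) at -144 bp, and Chro, which encodes the chromatin protein Chromator, a peak of 316 bp (1200) at 96 bp. PNPase, for a mitochondrial RNA-degrading enzyme, had a peak of 318 bp (1165) at 83 bp. The peak of Lk6, a kinase gene of translation control, lay in an intron at -978 bp from the nearest TSS (321 bp wide, 1115). Art3, for an arginine methyltransferase, had a divergent promoter peak at -124 bp (317 bp wide, 1110). They were followed by peaks at CG13323, 11959 bp from its TSS in intergenic sequence (1075), CenG1A (1052), CG1888 (990), the ESCRT-III gene CHMP2B (913) and CG31145 (910). An intronic peak of cno, which encodes the junction protein Canoe, had a signal of 902 and ranked 20, 17 and 41 in the replicates. GstE13 (846) and CG5098 (846) had promoter peaks. For the peak of Cib2 (841), the summit was in coding sequence of the homeobox gene otp. Shc, for an adaptor of receptor tyrosine kinases (835), and lncRNA:CR44619 (825) completed the set.

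**Figure D2:**
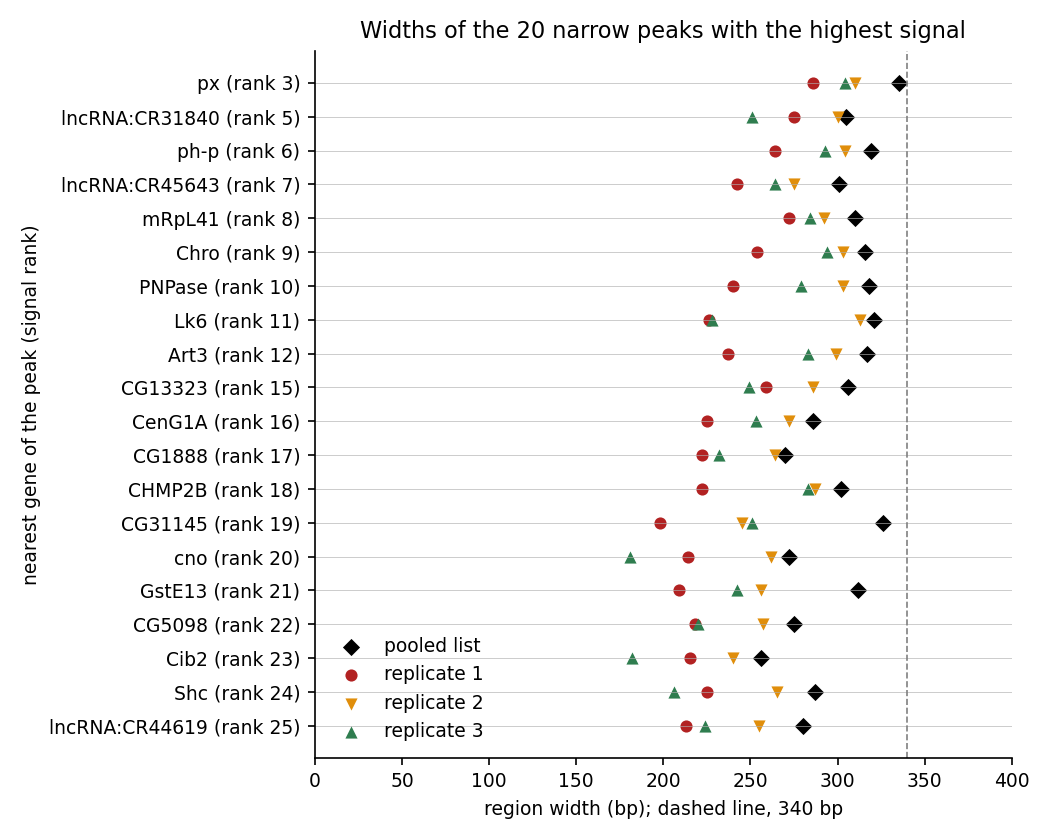
Region width (bp) of the 20 narrow peaks of highest signal in the pooled list (black diamonds) and in replicates 1, 2 and 3, ordered by signal rank from the top. Pooled widths of 256 to 335 bp lie at or above those of the replicates, and every replicate region is below 340 bp (dashed line).

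The 5 narrowest peaks, each of 96 bp, were at CG7841, shn, RluA-1, CG13321 and CG44812. Their signals were 331, 320, 306, 278 and 222. The peak at shn, which encodes a zinc finger protein of Dpp signalling, lay at -310 bp and ranked 407, 154 and 308 in replicates 1, 2 and 3. The peak at CG7841 lay at -132 bp and ranked 302, 199 and 221. Of these 5 peaks, RluA-1 alone had a replicate region below 340 bp, of 112 bp in replicate 3. The intergenic peak at CG13321 missed the distance of 50 bp in replicate 3, where its summit was 53 bp away. These peaks thus took the default width in nearly every replicate list.

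A few narrow peaks stood far down the list. Past rank 500 there were 6: sbb (182 bp, rank 505), CG44812 (96 bp, 516), Dys, the dystrophin gene (117 bp, 559), MFS18 (115 bp, 660), Lrch (98 bp, 948) and ITP, which encodes ion transport peptide (147 bp, 1680). The region at Lrch overlaps that of a stronger narrow peak of the same gene (296 bp, rank 32), with summits 205 bp apart. The peak at ITP had a signal of 113 and ranked 1102, 4646 and 1829 in the replicates, with summits 7, 1 and 7 bp away. It was the single narrow peak below the highest −log10 q, at 2.57. This group was too small for a comparison, since the first 600 peaks by signal held 253 narrow peaks and the rest of the list 3.

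Summits of narrow peaks were placed alike in the 3 replicates more often than those of wide peaks. Of the narrow peaks, 234 of 256 (91.4%, 95% Wilson interval 87.3 to 94.3%) had a summit within 50 bp in all 3 replicate lists, against 1267 of 2141 wide peaks (59.2%, 57.1 to 61.2%) and 62.6% of all optimal peaks. The difference was 32.2 percentage points (Newcombe interval 27.7 to 35.8). A further 21 narrow peaks (8.20%) matched in 2 replicates, 1 (0.39%) in a single replicate and 0 in none. The wide peaks numbered 663 (31.0%), 195 (9.11%) and 16 (0.75%). Of all optimal peaks, these shares were 28.5%, 8.18% and 0.67%. Intervals over peaks cover counting error only, because peaks share libraries and are not replicates. Among the 27603 pooled regions outside the optimal set, 5.13% met the same criterion. The optimal set was itself kept for reproducibility between these replicates, so this share is not an independent baseline. Pooled and replicate summits also come from the same reads.

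In replicates 1, 2 and 3 the shares were 98.0%, 97.3% and 95.7% of narrow peaks, against 81.9%, 86.4% and 80.3% of wide peaks, and 83.6%, 87.5% and 82.0% of all optimal peaks. Narrow peaks were higher in each replicate, and the values of the groups did not overlap. The mean was 97.0% ± 1.19 for narrow and 82.9% ± 3.13 for wide peaks (SD, n = 3 each), a difference of 14.1 points (two-sided exact sign-flip permutation test over the replicates, p = 0.25). The difference was 7.54 points among the first 600 peaks by signal (n = 3 replicates, exact sign-flip p = 0.25) and 4.98 points among the 300 peaks that follow the first 100 (exact p = 0.25). With 3 replicates this test cannot go below 0.25, so it could not reach 0.05. The median distance between pooled and replicate summit was 7, 6 and 11 bp for narrow peaks, against 14, 8 and 17 bp for wide peaks (exact sign-flip p = 0.25). Median ranks in the replicates were 141, 143.5 and 143.5 for narrow peaks and 1344.5, 1343 and 1391.5 for wide peaks.

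The gap in summit agreement was smaller within bands of signal rank, which were not matched on signal. In the first 600 peaks, the median rank was 136 for narrow and 418 for wide peaks. Within the first 600 peaks by signal, 231 of 253 narrow peaks (91.3%) and 253 of 347 wide peaks (72.9%) matched in all 3 replicates, a difference of 18.4 points (12.4 to 24.1). Among the 300 peaks that follow the first 100, the shares were 88.7% of 151 narrow peaks and 76.5% of 149 wide peaks, 12.2 points apart (3.66 to 20.7). Even there the narrow peaks were the stronger, with a median rank of 186 against 308. The median summit distance in this band was 7, 7 and 11 bp for narrow and 11, 7 and 12 bp for wide peaks (exact sign-flip p = 0.5). Among the 200 peaks after the first 200, the shares were 85.3% and 78.8%, a difference of 6.51 points. The bands by rank were chosen after the data were seen, and the part of signal in the remaining gap was not tested.

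**Figure D3:**
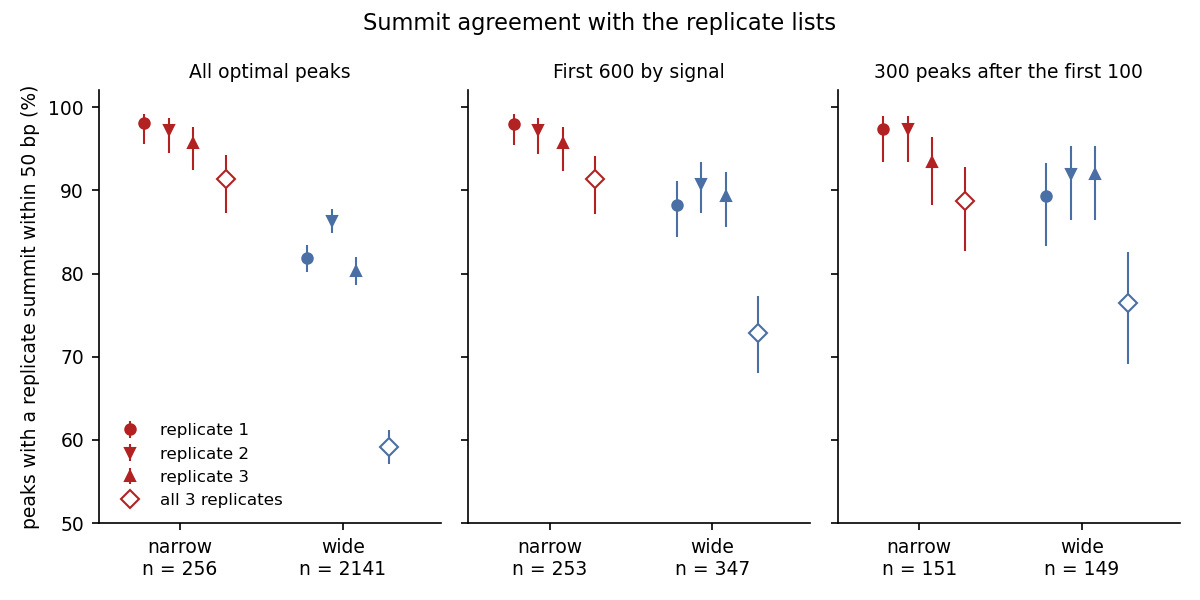
Share of peaks (%) with a replicate summit within 50 bp, for narrow (red) and wide (blue) peaks in each replicate (filled) and in all 3 (open diamonds), with 95% Wilson intervals over peaks. The gap between the open diamonds is 32.2 points among all optimal peaks, 18.4 among the first 600 and 12.2 among the 300 peaks after the first 100; the axis starts at 50%.

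Within the narrow group, in contrast, agreement was lower for narrower peaks. Of the 86 narrowest peaks, 96 to 155 bp wide, 72 (83.7%) matched in all 3 replicates. The figures were 79 of 85 (92.9%) for peaks of 155 to 215 bp and 83 of 85 (97.6%) for peaks of 215 to 335 bp. The median ranks of these groups were 235.5, 146 and 49, so that signal moved with width here too. Of the 22 narrow peaks that did not match in all 3 replicates, CG1607 (163 bp, rank 213) missed in replicates 1 and 3, with summits 54 and 59 bp away. The largest distance was 142 bp, in replicate 2 at mrj. RpL32, for a ribosomal protein, missed in replicate 3, with a summit 88 bp away, and its ranks were 134, 106 and 306.

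More narrow peaks lay at promoters than in any other location. Summits lay within 500 bp of a TSS in 136 narrow peaks (53.1%) and 1002 wide peaks (46.8%), against 47.5% of all optimal peaks, a difference of 6.32 points (-0.15 to 12.7). Introns held 80 narrow peaks (31.2%) and 816 wide peaks (38.1%), against 37.4% of all, which is -6.86 points (-12.6 to -0.60). Intergenic sequence held 37 narrow peaks (14.5%) and 265 wide peaks (12.4%), against 12.6% of all. A further 2 narrow peaks lay in coding exons, 1 in a noncoding exon and 0 in untranslated regions. Wide peaks numbered 7 in coding exons, 13 in noncoding exons, 20 in 3′ and 18 in 5′ untranslated regions.

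Within the bands of signal rank the promoter difference changed sign. Among the first 600 peaks the promoter share was 53.4% of narrow and 55.6% of wide peaks, and among the 300 peaks after the first 100 it was 51.0% and 55.7% (difference -4.71 points, -15.8 to 6.51). The intron share was 30.8% of narrow and 33.1% of wide peaks among the first 600 (-2.31 points, -9.73 to 5.29), and 32.5% and 33.6% in the band after the first 100 (-1.11 points, -11.6 to 9.45). The interval of the intron difference thus left out 0 only over all optimal peaks. The intergenic share was 14.6% of narrow and 8.65% of wide peaks among the first 600 (5.98 points, 0.84 to 11.5). In the band after the first 100 it was 15.9% of narrow and 8.05% of wide peaks, 24 and 12 peaks (7.84 points, 0.43 to 15.3). In the 2397 highest regions of each replicate's own list, promoters held 52.1%, 53.0% and 60.7% of narrow regions and 48.7%, 46.3% and 46.5% of wide regions (exact sign-flip p = 0.25). Introns held 28.1%, 29.8% and 27.4% of narrow and 34.5%, 37.6% and 37.5% of wide regions (exact p = 0.25). Intergenic shares were 16.7%, 15.2% and 9.40% for narrow and 12%, 13.0% and 13.4% for wide regions (exact p = 0.75), with no common direction. These lists were not matched on signal.

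**Figure D4:**
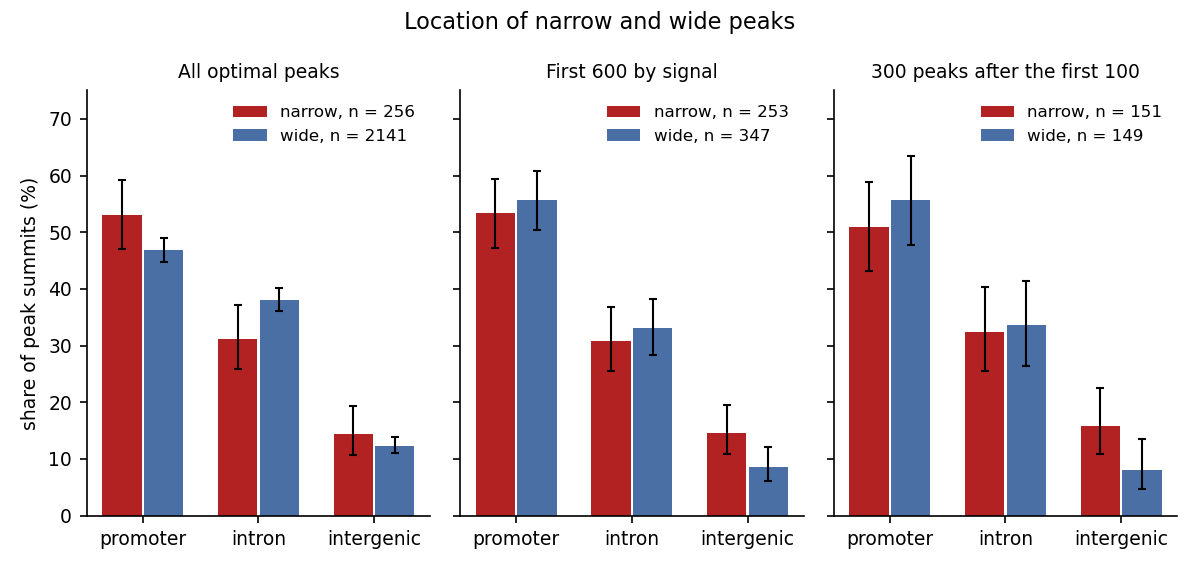
Share of summits (%) at promoters (within 500 bp of a TSS), in introns and in intergenic sequence for narrow (red) and wide (blue) peaks, with 95% Wilson intervals over peaks. Promoter shares are 53.1% and 46.8% among all optimal peaks, and 51.0% and 55.7% among the 300 peaks after the first 100.

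Most promoter peaks, narrow and wide, had the summit upstream of the TSS. Of the 136 narrow promoter peaks, 111 (81.6%) had the summit upstream of the nearest TSS, and the median position was -131.5 bp. In 43 (31.6%) the region contained the TSS, a share that depends on the width used to choose these peaks. The same count was not made for wide peaks. Of the 1002 wide promoter peaks, 799 (79.7%) were upstream, at a median of -84 bp. Summits within 100 bp of the TSS made up 31.6% of narrow and 45.6% of wide promoter peaks. Among the 300 peaks after the first 100 these shares were 32.5% and 30.1%, so this contrast, too, was not seen in that band. Divergent promoters, with TSSs of both strands within 500 bp, held 42 narrow peaks (16.4%) and 376 wide peaks (17.6%), and 16.6% and 16.1% among the first 600. Summits of the narrow regions lay a median of 11 bp from the centre of the region, with an upper quartile of 21.5 bp, and at most 74 bp. In some short regions, such as those at spi and RluA-1, the summit lay near an edge.

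Among the stronger peaks, the X held a larger share of narrow than of wide peaks. Over all optimal peaks it carried 57 narrow peaks (22.3%) and 399 wide peaks (18.6%), against 19.0% of all optimal peaks, a difference of 3.63 points (-1.34 to 9.34). Among the first 600 peaks the shares were 22.5% and 13.8% (8.70 points, 2.49 to 15.1), and among the 300 peaks after the first 100 they were 26.5% and 13.4% (13.1 points, 4.02 to 21.9). Over all optimal peaks, the intervals of the other arms included 0. The arm 3L held 16.0% of narrow and 21.0% of wide peaks, a difference of -5.00 points (-9.37 to 0.26). The intervals are for 1 arm each and are not adjusted over the 6 arms.

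GC content about 100 bp from the summit was higher at narrow peaks than at wide peaks. Within 20 bp of the summit, mean GC content was 34.8% ± 0.66 in narrow peaks (SE over 256 peaks), against 35.3% ± 0.60 in the 347 wide peaks among the first 600 and 36.9% ± 0.25 in all wide peaks. In the ring from 80 to 100 bp it was 43.5% ± 0.66 in narrow peaks, against 39.6% ± 0.55 in those 347 wide peaks and 39.7% ± 0.23 in all wide peaks. Mean GC content thus rose over a shorter distance from the summit in narrow peaks. Summits of wide peaks were also placed less alike between replicates, and the part of this in the averaged profiles was not tested. Beyond 240 bp the 3 profiles ran together, with 43.1%, 43.5% and 43.5% in the ring from 240 to 260 bp. Within narrow peaks, GC content from 80 to 100 bp was 41.5%, 44.3% and 44.7% in the narrowest, middle and widest group of 86, 85 and 85 peaks.

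The same ring differed in each replicate's own list. From 80 to 100 bp of the replicates' own summits, mean GC content was 44.3%, 44.4% and 43.9% in narrow regions, against 40.4%, 40.4% and 39.2% in wide regions from the top 25% of each replicate's 2397 highest regions. The means were 44.2% ± 0.29 and 40.0% ± 0.68 (SD, n = 3 each), and the values did not overlap (difference 4.21 points, two-sided exact sign-flip p = 0.25). Of the narrow regions in replicates 1, 2 and 3, 90 of 96, 147 of 152 and 109 of 117 lay at narrow optimal peaks. GC content is read from the same genome sequence, so the replicate values largely describe the same sequences and are not independent. The narrow and wide regions of these lists were not matched on signal. Among the 300 optimal peaks after the first 100, the ring held 43.5% in narrow and 40.3% in wide peaks. Over 100 bp to each side of the summit, median GC content was 37.8% in narrow peaks, against 36.3% in wide peaks among the first 600 and 37.3% in all wide peaks. The rings were looked at after the first GC values were seen. Sequencing coverage by GC content was not available in the peak lists, and its part in these profiles was not tested.

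**Figure D5:**
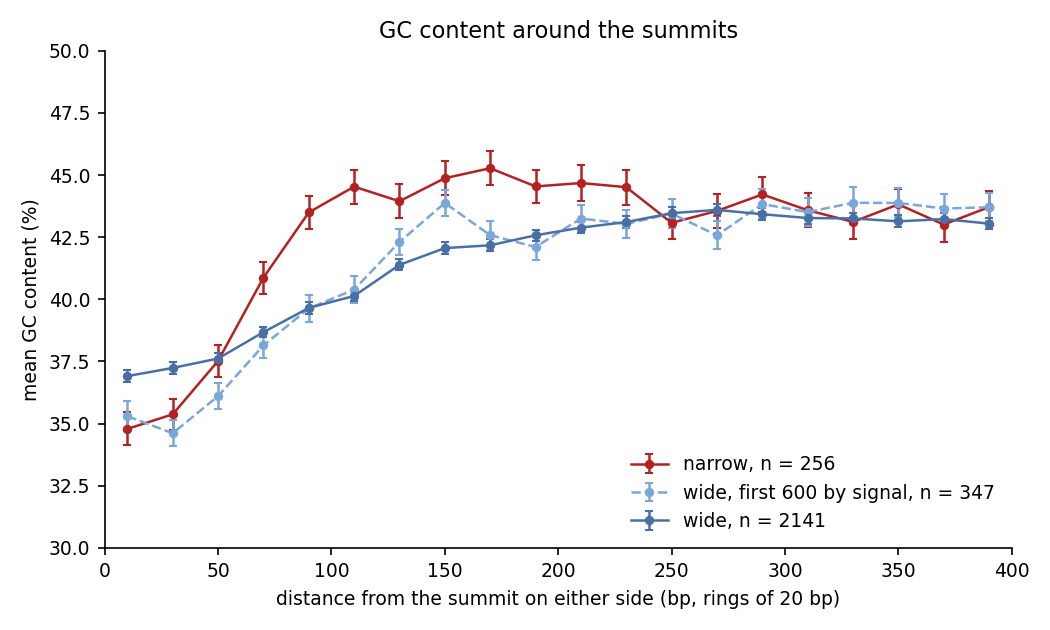
Mean GC content (%) in rings of 20 bp against distance from the summit (bp), for narrow peaks (red), wide peaks among the first 600 (light blue, dashed) and all wide peaks (blue), with bars of 1 SE over peaks. Between 60 and 120 bp the narrow peaks lie above both wide groups, at 43.5% against 39.6% and 39.7% in the ring from 80 to 100 bp; the axis starts at 30%.

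Over all optimal peaks, the interval of the difference between narrow and wide peaks included 0 for each of the 12 motifs, which does not show that they were equally frequent. Each motif was searched on both strands within 100 bp of the summit. The class C site (CACGCG), known as a site of Hairy and E(spl) repressors, was in 12 narrow peaks (4.69%) and 65 wide peaks (3.04%), against 3.21% of all optimal peaks (difference 1.65 points, -0.50 to 5.04). The class B E-box (CACGTG) was in 7 narrow (2.73%) and 62 wide peaks (2.90%), against 2.88% of all. Its narrow peaks were at mRpL23, RpL7, sgll, aos, RpL34b, prage and RpS28b. The N-box (CACNAG) was in 47 narrow (18.4%) and 474 wide peaks (22.1%), against 21.7% of all. Among the first 600 peaks it was in 18.6% of narrow and 17.9% of wide peaks (0.71 points, -5.43 to 7.12). Among the 300 peaks after the first 100, it was in 23.2% and 14.1% (9.08 points, 0.23 to 17.8). Over all optimal peaks the N-box difference had the other sign, at -3.78 points. That band was chosen after the data were seen, and the intervals are not adjusted over the 12 motifs or the bands. The E-box CACCTG was in 15 narrow (5.86%) and 131 wide peaks (6.12%), against 6.09% of all. The Su(H) site, which reads C or T, GTG, A or G, and GAA, was in 1 narrow peak, at CG3009, and in 42 wide peaks (0.39% and 2.0%, against 1.79% of all).

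Core promoter and architectural motifs came next. The DNA replication-related element, DRE (TATCGATA), was in 5 narrow (1.95%) and 76 wide peaks (3.55%), against 3.38% of all, and among the first 600 peaks the shares were 1.98% and 2.02%. The narrow peaks with a DRE were at Shc, CG9147, Alg3, Rme-8 and eEF1gamma. The BEAF site (CGATA), which the DRE contains, was in 62 narrow (24.2%) and 612 wide peaks (28.6%), against 28.1% of all. Motif 1 was in 2 narrow peaks, at RpL7 and slp2, and in 25 wide peaks (0.78% and 1.17%, against 1.13% of all). The Initiator (TCAGT followed by C or T) was in 51 narrow (19.9%) and 395 wide peaks (18.4%), against 18.6% of all. The TATA box (TATAAA) was in 70 narrow (27.3%) and 620 wide peaks (29.0%), against 28.8% of all. The GAGA repeat (GAGAG) was in 67 narrow (26.2%) and 512 wide peaks (23.9%), and 24.2% of all optimal peaks held it. The Zelda site (CAGGTAG) was in 2 narrow and 15 wide peaks (0.78% and 0.70%, against 0.709% of all). A match is a description of the sequence and not a measured site.

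The 256 narrow peaks were nearest to 244 genes, of which 79 (32.4%) were also nearest to a wide peak. The nearest gene was not protein-coding for 28 narrow peaks (10.9%) and 270 wide peaks (12.6%), against 12.4% of all optimal peaks. No gene had more than 2 narrow peaks, and 12 had 2: Raf, S, Ptpmeg2, NFAT, Lrch, Rtnl1, CG43245, Hr4 and 4 long noncoding RNA genes. At Raf there were 7 wide peaks besides, and at the nuclear receptor gene Hr4 there were 5. The 2 narrow peaks of NFAT, for a transcription factor of the Rel family, had signals of 622 and 475.

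The 2 signalling lists looked at were those of the EGFR and Notch pathways. In the EGFR pathway, secreted ligands activate a receptor tyrosine kinase and the Raf kinase cascade. Of its 18 listed genes, 4 were nearest to a narrow peak and 5 to a wide peak, against 220 (1.58%) and 1516 (10.9%) of 13945 protein-coding genes. Raf carried the strongest (chrX:2297597-2297853, signal 708), in an intron, with ranks of 63, 32 and 36 in the replicates. S, which encodes Star, a protein of ligand trafficking, had intronic peaks of 508 and 311. The secreted inhibitor gene aos had an intronic peak of 392 with ranks of 158, 172 and 152, and a class B E-box. The ligand gene spi had a promoter peak of 379 at -198 bp, ranked 99, 334 and 128.

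In the Enhancer of split complex, 1 of 13 genes was nearest to a narrow peak and 4 to a wide peak. It was gro, which encodes Groucho, with a peak at -131 bp (chr3R:26042390-26042633, 244 bp wide, signal 737) and ranks of 30, 38 and 54 in the replicates. A wide peak was nearest to gro as well. That narrow peak was also the one of the Notch pathway list, 1 of 21 genes, where 6 had a wide peak. Of the 11 proneural and neural helix-loop-helix activators, 0 had a narrow and 0 a wide peak. The mesoderm and muscle list had 0 genes with a narrow and 6 with a wide peak of 15. Among all protein-coding genes, 1.58% were nearest to a narrow peak and 10.9% to a wide peak. Beside a share of 1.58%, 0 narrow peaks in lists of 11 and 15 genes does not show that they were avoided. These counts are small and describe the lists.

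Of 24 genes of the Polycomb and trithorax groups, 3 (12.5%) were nearest to a narrow peak and 5 (20.8%) to a wide peak, against 1.58% and 10.9% of protein-coding genes. Besides ph-p these were Trl, which encodes GAGA factor (intron, 251 bp wide, signal 573, ranks 70, 98 and 43), and trx, for a histone methyltransferase (intron, 98 bp wide, 254, ranks 522, 664 and 175). Of 16 genes of insulator and architectural proteins, Chro and Trl (12.5%) had a narrow peak and 4 (25%) a wide peak. These counts were not tested.

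Ribosomal protein genes carried narrow peaks close to their start sites. Of the 92 cytosolic ribosomal protein genes, 7 (7.61%) were nearest to a narrow peak and 38 (41.3%) to a wide peak. Among all protein-coding genes these shares were 1.58% and 10.9%. All 7 narrow peaks were promoter peaks with summits between -100 and 19 bp of the TSS. RpS27 had a signal of 627 at -10 bp, with ranks of 33, 61 and 73 in replicates 1, 2 and 3. RpL7 had 558 at 19 bp, with ranks of 38, 71 and 214. RpL23A had 369 at -75 bp, with ranks of 131, 126 and 550. The peaks of these 3 genes and of RpL32 all ranked lowest in replicate 3, as did RpL8 (signal 232), with ranks of 298, 729 and 741. RpL34b (331) and RpS28b (266) ranked lowest in replicate 2. Of the 45 peaks nearest to these genes, 15.6% were narrow, against 10.9% of all peaks at protein-coding genes.

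Of 73 mitochondrial ribosomal protein genes, mRpL41 and mRpL23 (signal 666, ranks 43, 55 and 42) had a narrow peak and 2 others a wide peak. Among 23 translation factor genes, eEF1gamma had a narrow peak at -18 bp (311, ranks 145, 254 and 427), and 5 had a wide peak. Of 13 glycolytic genes, Gapdh2 had a narrow peak at -156 bp (348, ranks 453, 178 and 107), and 3 had a wide peak. Actin and tubulin genes had 0 narrow and 3 wide of 14, and proteasome genes 0 and 2 of 48. Shares with a narrow peak were 2.74% of the mitochondrial ribosomal, 4.35% of the translation factor and 7.69% of the glycolytic genes. Among all protein-coding genes, 1.58% had a narrow and 10.9% a wide peak. These counts are small and were not tested.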

How the data were processed

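The deposited dm6 peak lists of 3 biological replicates, of the pooled replicates and the optimal set were used, with the dm3 optimal list for numbers and widths of regions only. Per the deposited descriptions of the files, regions were called for each replicate and for the pool against 1 control alignment, and the optimal set was derived from them by IDR. Neither the aligner nor the peak caller, nor the rule that sets a region's width, is given in the sources used here. The signal of a region is the authors' deposited value, with no stated scale, and was used only as a rank or description within a list. The deposited q-value is given as −log10, and the p-value column holds a placeholder. Depth is unknown.

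Peaks were placed on the gene models of Ensembl release 115 and the RefSeq dm6 sequence, after a check that each ended within its arm. A summit within 500 bp of a TSS (genes other than pseudogenes and transposable elements) was called promoter, and otherwise coding exon, untranslated region, noncoding exon, intron or intergenic. A replicate match is a region of the replicate's list of 30000 with its summit within 50 bp. For summit distances, regions within 500 bp were used. One region is listed with 2 summits and counted as 2 peaks.

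The samples form 1 group, so narrow and wide peaks were compared within it. Shares have 95% Wilson intervals and their differences Newcombe intervals, and values per replicate were compared, narrow with wide within each replicate, by the two-sided exact sign-flip permutation test over 3 replicates. Summit matching was tested on simulated positions, and the overlap of positions with intervals and the sign-flip test on small examples with known answers. The other steps were not tested in this way. Alternatives were other widths, summit distances, list lengths, promoter windows, TSS sets, motif windows, bands of signal and leaving out each replicate. The members and gene lists were chosen with earlier results of these data known. The text names genes by the TSS nearest to the 20 strongest and 5 narrowest narrow peaks, narrow peaks at list members (up to 4 per list in full), and others where this is said or a count is small. The gene symbol calypso had no match. Tables were made in Python 3.11.15 (pandas 2.3.3, NumPy 2.4.6), tests with SciPy 1.17.1, figures with Matplotlib 3.10.9.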

Additional observations from a re-analysis of the deposited data

How the results depend on the processing

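Values are narrow minus wide. The share of peaks that match in all 3 replicates, 32.2 points, was 23.5 in the upper part of the list (its first 1198 peaks), 18.4 in the first 600 peaks, 12.2 in the 300 peaks after the first 100 and 6.51 in the 200 peaks after the first 200. It was 11.3 with 100 bp and 2.90 with 200 bp allowed between summits, and 55.5 with the replicates cut to their 2397 highest regions. With matches asked of 2 replicates it was 23.0 to 27.2. The promoter difference of 6.32 points was -2.26, -4.71 and -16.3 in the first 600 peaks and the bands after 100 and after 200. The intron difference of -6.86 was 4.86 in the last band. The intergenic difference of 2.08 was 7.84 and 14.5 in the bands after 100 and after 200. The median TSS distance, -196 bp, was 34, 102 and 635 bp in the first 600 and those bands. The median GC content, 0.50 points higher over 100 bp to each side, was -2.97 over 50 bp to each side. Over 100 bp to each side it was 1.49 in the first 600 peaks and in the band after 100, and 1.99 in the band after 200. Over 50 bp to each side the medians were 33.7% in narrow and 34.7% in wide peaks of the first 600, and 34.7% and 33.7% in the band after 100. The GC difference from 80 to 100 bp, 3.84 points, was 2.10 in the 200 peaks after the first 200. The cause of these changes was not tested. Wider distances let more peaks of both groups match: 99.2% of narrow and 87.9% of wide peaks with 100 bp, and 100% and 97.1% with 200 bp. The bands after 100 and after 200 and the GC rings were chosen after seeing the data. The mean share within 50 bp per replicate, 14.1 points, stayed above 0, at 0.996 with 200 bp allowed, 2.69 in the 200 peaks after the first 200, and up to 29.7 with the 2397 highest regions. The median replicate rank, -1217, was -602.7, -285.7, -108.7 and -39.3 in the first 1198, the first 600 and the bands after 100 and after 200. Median summit distances kept their direction under their 11 alternatives. Comparisons within the later groups of 600 peaks were not run, since these hold 2, 1 and 0 narrow peaks. Unknown depth limits how far a missing match can be read.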

Other observations

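Outside the optimal set, 1 of 27603 pooled regions was below 340 bp. It was 131 bp wide (chr3R:25473365-25473495), with its summit 2 bp from the TSS of Vps33B, a gene of vesicle tethering to lysosomes, and stood at rank 3433 with a signal of 73.0. Its summits were 6, 54 and 16 bp away in replicates 1, 2 and 3.

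Another pooled region had its summit within 500 bp of 31 narrow peaks (12.1%) and 408 wide peaks (19.1%), a difference of -6.95 points (-10.8 to -2.11). Among the first 600 peaks the shares were 11.1% and 15.9% (-4.78 points, -10.1 to 0.87), and among the 300 peaks after the first 100 they were 10.6% and 18.8% (-8.20 points, -16.3 to -0.14). Another optimal summit was as near for 12 narrow (4.69%) and 82 wide peaks (3.83%).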
